A study of Homo sapiens with 26 samples.

Results

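The proteasome genes measured here were the 47 genes with symbols that start with PSMA, PSMB, PSMC, PSMD, PSME or PSMG, PSMB8 and PSMB9 left out, among the 19775 genes that had a probe set of 1 gene. Where a gene had several such probe sets, the one with the highest mean signal stood for it. Of the 47, 39 encode subunits, activators or assembly chaperones of the proteasome. The other 8 share only the prefix, namely the noncoding RNAs PSMA3-AS1, PSMB8-AS1, PSMD6-AS2, PSMG3-AS1, PSMD7-DT and PSMD14-DT and the proteins PSMC3IP, a meiotic recombination factor, and PSME3IP1, a binding partner of PSME3. PSMA6 and PSME2 had only probe sets that name several genes, and PSMC5, PSMD7, PSMD13 and PSMB11 were not analysed here.

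The proteasome degrades proteins tagged with ubiquitin. Its core particle stacks outer alpha rings on inner beta rings that hold the proteolytic sites, and a regulatory particle made of an ATPase base and a lid recognises, deubiquitinates, unfolds and feeds in the substrate. In kidney cells it is the machine that degrades the HIF-alpha subunits of the hypoxia response once the VHL protein has marked them, a step that is lost in 786-O, a clear cell renal carcinoma line without functional VHL.

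Total RNA of 786-O cells was measured on 26 Affymetrix U133 Plus 2.0 arrays, in signal units of brightness per probe set. The groups were cells given compound 40, 41, 76 or 77, 4 inhibitors of HIF-2a known here only by number, the DMSO vehicle group, the untreated group Blk, and the groups WT8 and PRC3, each with 3 arrays, and pTR and pTV with 1 array each. The titles give only these short names, so the compounds and Blk were identified by elimination, and their doses and times are unknown here. WT8 and PRC3 are names in wide use for 786-O sublines with reintroduced wild-type VHL and with empty vector, and the labels do not state it. Whether the 3 arrays of a group stem from separate cultures is not stated, and the p-values therefore cover only the spread between arrays, which may be technical.

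The 2% trimmed mean signal ran from 80.1 to 95.5 over the arrays. WT8 replicate 3 stood apart in RNA quality, where the ACTB signal at the 3 prime end was 2.37 times that at the 5 prime end, against at most 1.39 times on the other arrays. The deposited columns of compound 40 replicates 2 and 3 had mean signals of 165.9 and 173.7, where each of the other 24 had 142.8. How these columns were made is not stated. Several of the counts and medians that rest on WT8 replicate 3 or on these columns are also given without them. The others, among them the counts of groups that do not overlap, are given only with all arrays. Of the 6 kidney carcinoma markers, VIM lay at 7208 to 8708, MET at 1246 to 2659, PAX8 at 761 to 1329, KRT18 at 821 to 2098 and KRT8 at 570.3 to 1420 over the arrays, and PAX2 at 22.1 to 177. The leukocyte markers PTPRC and CD14 and the endothelial marker VWF were at the floor of 20 on all 26 arrays. CDH5 and CD3E reached 22.5 and 31.1 at most, and the endothelial marker PECAM1 lay at 45.5 to 117. Of the fibroblast markers, COL1A1 lay at 30.3 to 145, LUM at 20 to 113 and DCN at 20 to 45.7. COL3A1 and PDGFRB reached 22.5 and 25.2 at most.

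Of the 47 proteasome genes, 44 were bright enough to be tested, that is, no dimmer than the median of the array on at least 3 arrays. PSMA8, a testis form of an alpha subunit, reached 24.7 at most and was at the floor on 23 of 26 arrays. PSMD14-DT reached 35.5 at most and PSMD7-DT was at the floor on all 26 arrays. The within-group SD of the 44 genes had a median of 0.19 on the log2 scale, against 0.29 over all 15095 genes tested. The group means of a proteasome gene spanned a median of 0.58 log2 units between the lowest and the highest group, against 0.62 over all genes. PRC3 was the lowest of the 8 groups for 25 of the 44 genes, or 56.8%, against 16.1% of all genes. Compound 40 was the highest group for 15 of them, or 34.1%, against 14.5% of all genes. Without WT8 replicate 3, PRC3 was the lowest group for 28 genes, or 63.6%, against 16.8% of all genes. Compound 40 was then the highest for 16, or 36.4%, against 14.7%. With only replicate 1 of compound 40 in the means, that compound was the highest group for 4 genes, or 9.09%, against 16.3% of all genes, and PRC3 was the lowest for 22, or 50%, against 15.2%.

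Between 0 and 1 of the 44 proteasome genes were called with each compound against DMSO, and the one called was PSMC4. Called means a Benjamini-Hochberg adjusted p below 0.05 in limma over 35013 probe sets. With compound 41, 0 of 44 were called, where 3.34% of all genes were. With compound 76, 1 was called, PSMC4, higher, where 1.78% of genes were called. With compound 40, 1 was called, again PSMC4 and higher, where 0.855% of genes were called. With compound 77, 0 were called, where 0.179% of genes were. In limma an unadjusted p below 0.05 was reached by 5 of the 44 genes with compound 41, or 11.4% against 15.6% of all genes, by 6 with 76, or 13.6% against 12.2%, by 11 with 40, or 25% against 12.6%, and by 3 with 77, or 6.82% against 8.19%. With replicate 1 of compound 40 alone, 3 genes reached it, or 6.82%, against 6.29% of all genes.

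The median log2 change of the 44 genes against DMSO was 0.042 with compound 41, 0.061 with compound 76, 0.089 with compound 40 and 0.051 with compound 77. Over the 38 of them that are subunits, activators or chaperones, the medians were 0.042, 0.061, 0.11 and 0.069 in the same order. Medians over all genes were 0.013, 0.0059, 0 and 0. All 4 comparisons share the same 3 DMSO arrays, so they are not independent of one another. The 95% interval of the change lay within a 2-fold range either way for 43 of the 44 genes with compound 41, 42 with 76, 41 with 40 and 44 with 77. It lay within 1.5-fold for 32, 29, 28 and 32 of them in the same order. As shares, 97.7%, 95.5%, 93.2% and 100% of the 44 were within 2-fold, against 78%, 80.5%, 79.2% and 82.2% of all genes. Within 1.5-fold the shares were 72.7%, 65.9%, 63.6% and 72.7%, against 31.3%, 34%, 32.5% and 36.7%. In the fit that kept only replicate 1 of compound 40, the median change with that compound was -0.040 and 0 genes were called in limma. The median with compound 41 was -0.014 without DMSO replicate 1 and -0.030 with the mean of all probe sets of a gene.

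**Figure D1:**
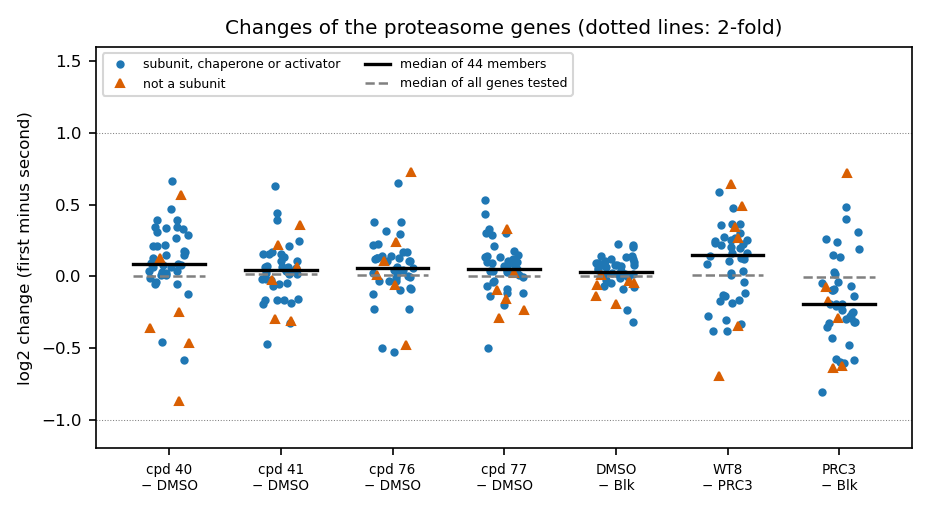
Log2 change of each of the 44 tested proteasome genes (vertical axis) in 7 comparisons (horizontal axis), with circles for subunits, chaperones and activators and triangles for genes that share only the prefix; black bars are the medians of the 44 genes, grey dashed bars those of all genes tested, and dotted lines mark 2-fold. The medians against DMSO lie between 0.042 and 0.089, and that in PRC3 against Blk is -0.19.

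With compound 41, all 3 arrays lay above all 3 DMSO arrays for 8 proteasome genes and below them for 3, shares of 18.2% and 6.82% against 12.9% and 10.5% of all genes. With compound 76 the counts were 8 above and 4 below, 18.2% and 9.09%, against 10.8% and 8.67% of genes. With compound 40 they were 6 and 3, 13.6% and 6.82%, against 7.62% and 7.85%, and with compound 77 they were 7 and 2, 15.9% and 4.55%, against 7.38% and 6.95%.

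The 6 alpha ring genes tested, which form the gated entrance of the core particle, had median log2 changes of -0.0028 with compound 41, 0.073 with 76, 0.075 with 40 and 0.051 with 77. With compound 40 all 6 were above 0, between 0.01 and 0.34, and none was called, while with replicate 1 of that compound alone 3 of 6 were above 0 and the median was -0.032. PSMA5, the highest of them, had 1350.3, 2045 and 1612 in cells given compound 40 and 1248, 1370.0 and 1280.3 in DMSO cells. The compound 40 arrays covered a wide range and their lowest value lay inside the DMSO range.

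In the beta ring, PSMB5 carries the chymotrypsin-like site, PSMB6 the caspase-like site and PSMB7 the trypsin-like site. PSMB5 had signals of 1203, 1486 and 1289 with compound 40, 1151, 1102 and 1120.3 with 41, 1066, 1384 and 1215 with 76 and 1122, 1211 and 1129.7 with 77, against 889, 1106 and 1159 in DMSO. Only compound 40 had every array above every DMSO array, with a log2 difference of 0.34 ± 0.12 (SE) and an adjusted p of 0.221 (limma, Benjamini-Hochberg). PSMB6 had 1466, 1833 and 1587 with compound 40 and 1468, 1559 and 1803 with compound 77, against 1184, 1217 and 1439.5 in DMSO. Both sets of arrays lay above all DMSO arrays, with log2 differences of 0.35 and 0.33 and limma adjusted p-values of 0.240 and 0.473 after Benjamini-Hochberg adjustment. With compounds 41 and 76 the PSMB6 differences were 0.15 and 0.06. PSMB7 had 2276, 3547 and 3011 with compound 40, 2697, 3339.8 and 2740.1 with 76 and 2508, 3299 and 2898 with 77, against 2067, 2445 and 2539 in DMSO, and its log2 differences were 0.31, 0.31 and 0.30. The PSMB7 arrays of compounds 40 and 77 overlapped with DMSO, and none of these differences was called.

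PSMB10, the subunit that takes the place of PSMB7 in the immune form of the core, had lower mean signals in all 4 compound groups than in DMSO, and none of these differences was called. Its signals were 168, 216 and 197 with compound 40, 171, 185 and 283 with 41, 181, 215 and 206 with 76 and 199, 205 and 208 with 77, against 296, 297 and 273 in DMSO. Of the 12 compound arrays, 11 lay below all DMSO arrays and 1, of compound 41, lay inside the DMSO range. The log2 differences were -0.58, -0.47, -0.53 and -0.50 with an SE of 0.20 each, and the Benjamini-Hochberg adjusted p in limma was between 0.200 and 0.510. The beta ring as a whole, 8 genes, had medians of 0.21 with compound 40, 0.060 with 41, 0.085 with 76 and 0.16 with 77, and of 0.024 with replicate 1 of compound 40 alone.

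**Figure D2:**
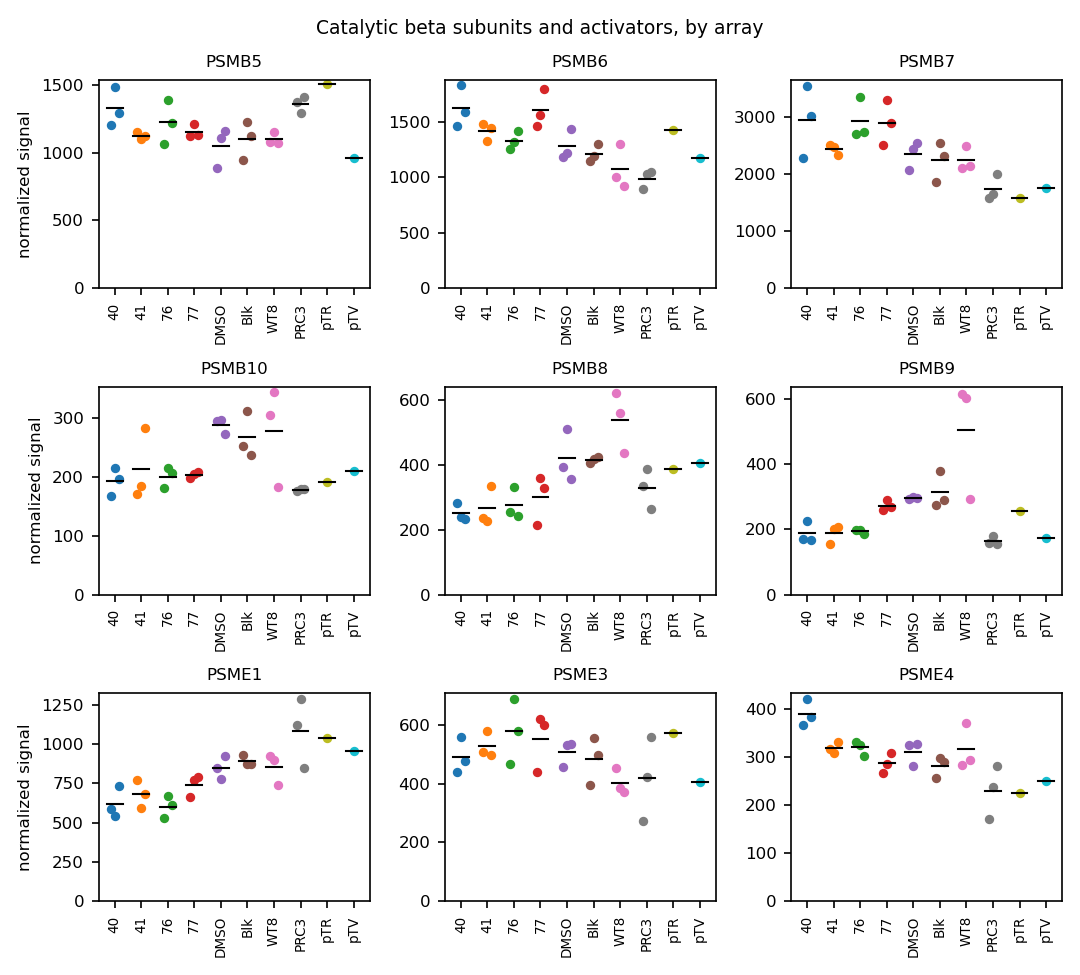
Normalized signal per array (vertical axis, linear from 0) of the catalytic subunits PSMB5, PSMB6, PSMB7 and PSMB10, the immune subunits PSMB8 and PSMB9 and the activators PSME1, PSME3 and PSME4, by group, with 1 point per array and a bar at each group mean. PSMB10 lies at 168 to 283 with the 4 compounds and at 273 to 297 in DMSO.

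PSMC4 is an ATPase of the base that helps to unfold and translocate substrates. By the probe set that stood for each gene, it was the only proteasome gene called with a compound. Its signals were 467, 521 and 477 with compound 40, 390.3, 438 and 422 with 41, 442, 542 and 472 with 76 and 407, 499 and 433 with 77, against 309, 256 and 366 in DMSO and 277, 442 and 388 in Blk. All 12 compound arrays lay above the 3 DMSO arrays, and the Blk arrays spanned the DMSO and the compound values. PSMC4 was 1.57-fold higher with compound 76 than in DMSO, a log2 change of 0.65 (95% interval 0.33 to 0.98, limma Benjamini-Hochberg adjusted p = 0.0371). With compound 40 it was 1.59-fold higher, a log2 change of 0.67 (interval 0.34 to 0.99, limma Benjamini-Hochberg adjusted p = 0.0494). With compounds 41 and 77 the differences were 0.44 and 0.53, with limma Benjamini-Hochberg adjusted p-values of 0.174 and 0.280.

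Both PSMC4 calls depended on individual arrays and on the control group. Against Blk in place of DMSO the log2 differences were 0.42 with compound 76 and 0.43 with compound 40, and neither was called (limma Benjamini-Hochberg adjusted p = 0.242 and 0.226). The call with compound 76 was lost without DMSO replicate 1 or 2 or without any 1 of the 3 compound 76 arrays, and the call with compound 40 without DMSO replicate 1 or 2 or compound 40 replicate 2 or 3. Over the alternatives tried, the Benjamini-Hochberg adjusted p in limma ran from 0.00889 to 0.242 with compound 76 and from 0.0133 to 0.612 with compound 40. The other ATPase genes tested, PSMC1, PSMC2, PSMC3 and PSMC6, had log2 differences between -0.23 and 0.27 over the 4 compounds.

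**Figure D3:**
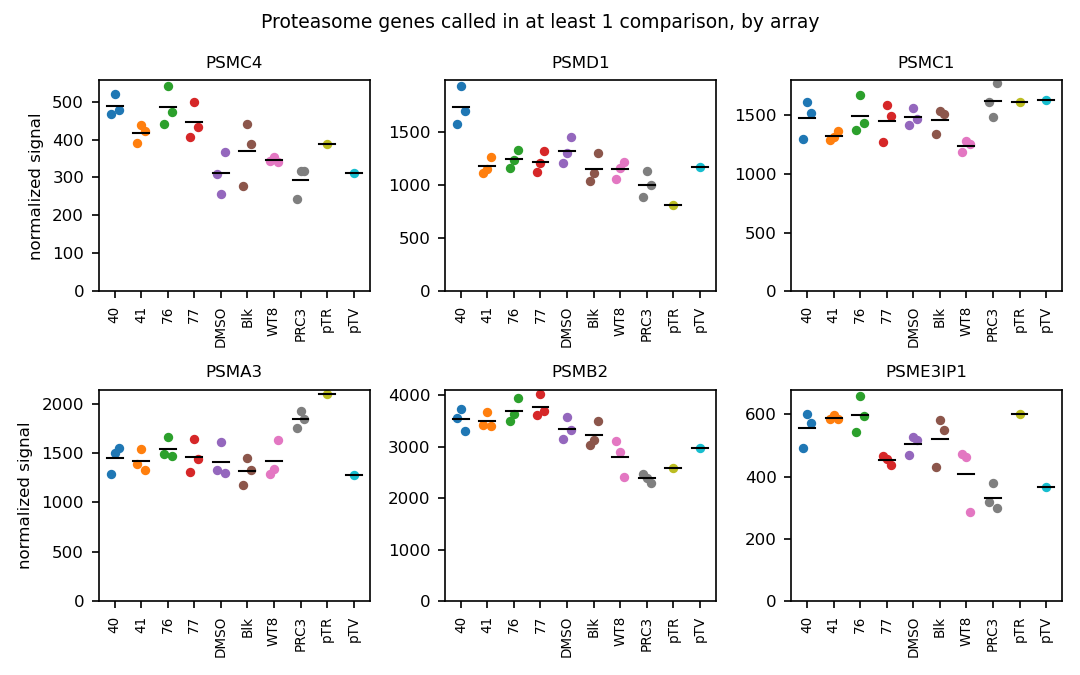
Normalized signal per array (vertical axis, linear from 0) of the 6 proteasome genes called in any comparison, by group, with 1 point per array and a bar at each group mean. For PSMC4 the 12 compound arrays lie above the 3 DMSO arrays, and for PSMD1 the compound 40 arrays lie above those of every other compound.

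PSMD1, a scaffold subunit of the base, had 1569, 1931 and 1695 with compound 40, 1111, 1155 and 1261 with 41, 1159, 1238 and 1331 with 76 and 1124, 1202 and 1317 with 77, against 1203, 1305 and 1450.5 in DMSO. The compound 40 arrays were above all DMSO arrays, and the other compounds overlapped with DMSO. The log2 difference with compound 40 was 0.39 ± 0.12 (SE), with a limma Benjamini-Hochberg adjusted p of 0.133. The second probe set of PSMD1 gave 0.23 in the same comparison.

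In the lid, which holds the deubiquitinase PSMD14 among structural subunits, all 6 genes tested were above 0 with compound 40, between 0.03 and 0.39, and 3 of 6 were with replicate 1 of that compound alone, where the median was -0.017. Median log2 changes of the lid were 0.12 with compound 41, 0.11 with 76, 0.14 with 40 and 0.064 with 77, and no gene was called. PSMD14 had 2118, 2774 and 2449.8 with compound 40, 2227, 2430.3 and 2401 with 41, 2167, 2583 and 2316 with 76 and 2179, 2888 and 2570.0 with 77, against 2333, 2349 and 2167 in DMSO. All 4 compound groups overlapped with DMSO, and the differences were 0.09, 0.04, 0.04 and 0.15.

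Among the activators, which cap the core in place of the regulatory particle, PSME1, an interferon-inducible subunit, had 588, 541 and 732 with compound 40, 773, 591 and 680.1 with 41, 528, 668 and 610.3 with 76 and 664, 769 and 789 with 77, against 848, 778 and 922 in DMSO. The arrays of compounds 40, 41 and 76 lay below all DMSO arrays, and those of compound 77 overlapped with them. The log2 differences were -0.46, -0.32, -0.50 and -0.20, with limma Benjamini-Hochberg adjusted p-values of 0.173, 0.342, 0.113 and 0.850. PSME4, the nuclear activator of ubiquitin-independent degradation, had 367, 422 and 385 with compound 40 against 326, 282 and 328 in DMSO, a difference of 0.33 that was not called. With compounds 41, 76 and 77 it differed by 0.04, 0.04 and -0.12.

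PSMG3, a chaperone of core assembly, had the largest positive difference with compound 41, with 244, 248 and 261 in compound 41 cells against 114, 181 and 208 in DMSO cells. The compound 41 arrays did not overlap with DMSO, and the log2 difference was 0.63 ± 0.24 (SE, limma Benjamini-Hochberg adjusted p = 0.198). With compounds 40, 76 and 77 the PSMG3 differences were 0.47, 0.38 and 0.44, on arrays of 168, 286 and 237 with compound 40, 160.4, 254 and 233 with 76 and 238, 191 and 233 with 77. PSMD10, a chaperone of base assembly also known as gankyrin, had 1160.3, 883 and 1049 with compound 41 and 912, 1103 and 1042 with 76, against 761, 739 and 847 in DMSO. Both sets of arrays lay above DMSO, with differences of 0.39 and 0.38 and limma Benjamini-Hochberg adjusted p-values of 0.135 and 0.217. The other 5 chaperone genes, PSMD5, PSMD9, PSMG1, PSMG2 and PSMG4, lay between -0.23 and 0.21.

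The genes that share only the prefix included some of the largest differences by value, on dim probe sets, and none was called. PSMB8-AS1, an RNA read opposite to PSMB8, had 30.7, 20.0 and 27.5 with compound 40 against 51.7, 35.0 and 56.8 in DMSO, a log2 difference of -0.87 with 1 of the compound 40 arrays at the floor. With compounds 76 and 77 the PSMB8-AS1 differences were -0.48 and -0.24. PSMG3-AS1 had 31.8, 28.0 and 44.0 with compound 76 and 20.0, 41.4 and 33.8 with compound 40, against 21.1, 20.5 and 20.0 in DMSO, differences of 0.73 and 0.57 close to the floor. PSMC3IP differed by -0.47 with compound 40, on arrays of 123, 80.4 and 130.1 against 117, 175 and 165 in DMSO, and by 0.33 with compound 77. PSMA3-AS1 differed by -0.32 with compound 41, on arrays of 40.8, 62.9 and 50.8 against 64.1, 60.8 and 64.4 in DMSO, and PSMD6-AS2 by -0.29 with compound 77, on arrays of 33.5, 50.7 and 28.5 against 34.0, 45.8 and 56.5 in DMSO.

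**Figure D4:**
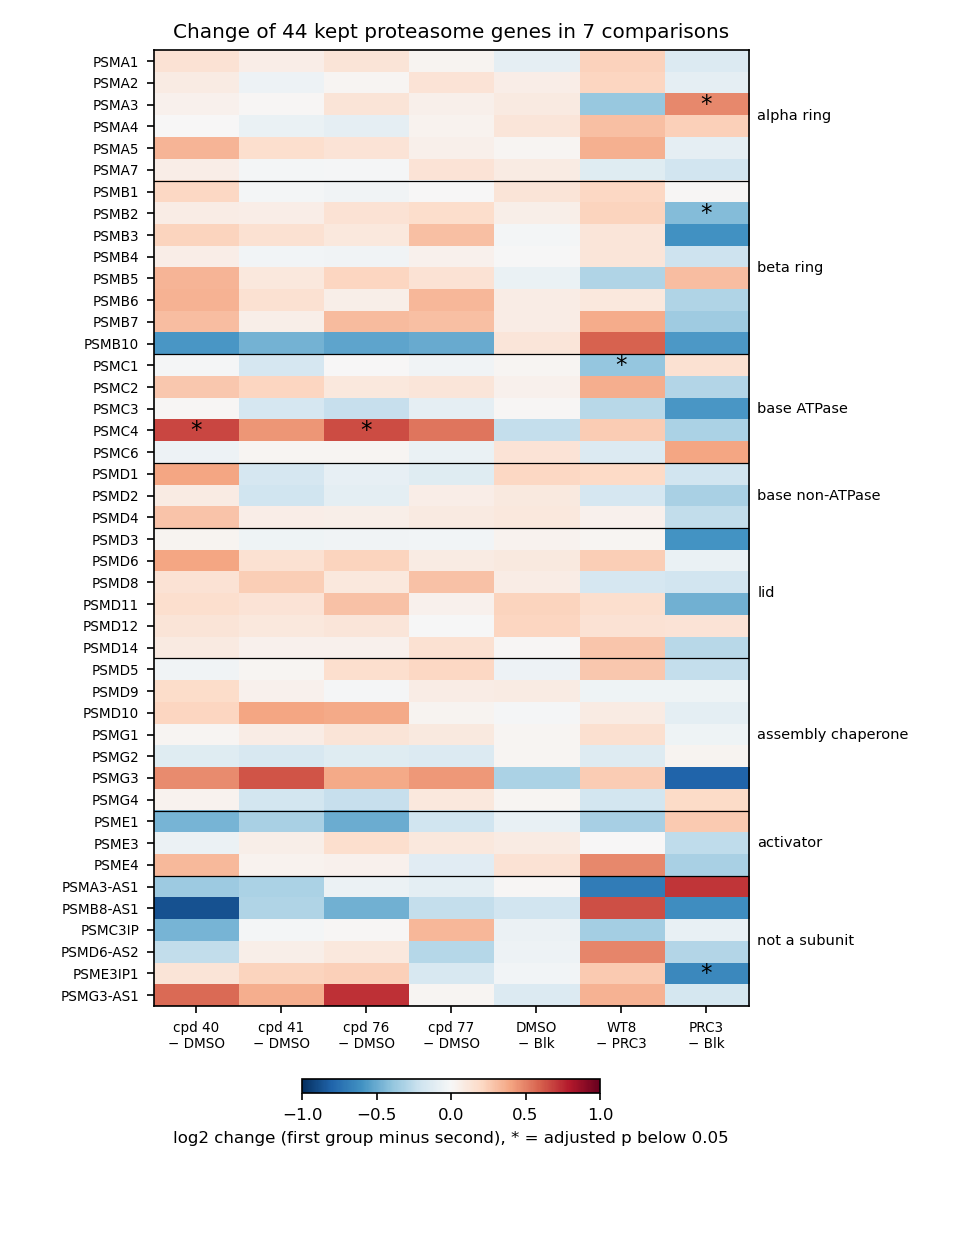
Colour map of the log2 change of each of the 44 tested proteasome genes (rows, grouped by role) in 7 comparisons (columns), with an asterisk where the Benjamini-Hochberg adjusted p in limma was below 0.05. The asterisks stand at PSMC4 with compounds 76 and 40, at PSMC1 in WT8 against PRC3 and at PSMA3, PSMB2 and PSME3IP1 in PRC3 against Blk.

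The vehicle itself gave no called proteasome gene. In DMSO against Blk, 0 of 44 genes were called and 0 had an unadjusted p below 0.05, while 0% of all 15095 genes were called in limma and 305 had an unadjusted p below 0.05. The median log2 change was 0.030 against 0.0002 over all genes (-0.0090 without Blk replicate 1). The 95% interval lay within 2-fold for all 44 proteasome genes, against 87% of all genes. Over the 38 subunits, activators and chaperones the median was 0.060. The DMSO arrays lay above all Blk arrays for 2 genes and below them for 0, shares of 4.55% and 0% against 3.18% and 2.85% of all genes. The largest differences by value were 0.22 for PSMD12 and 0.22 for PSMD11, both of the lid, and -0.32 for PSMG3. PSMD11 had 855, 1040.2 and 1062 in DMSO against 664, 901 and 990.1 in Blk, and PSMD12 had 801, 829 and 747 in DMSO against 658, 760.2 and 632 in Blk. Both genes overlapped between the groups. PSMC4 differed by -0.24, lower in DMSO by value.

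The compounds were set against each other in all 6 pairs. By the probe set that stood for each gene, PSMD1 was the only proteasome gene called between compounds. PSMD1 was lower with compound 41 than with compound 40, 1176 ± 76.8 against 1732 ± 183 (SD, n = 3 each), by 0.56 on the log2 scale or 1.47-fold (95% interval -0.80 to -0.31, limma Benjamini-Hochberg adjusted p = 0.0253). It was lower with compound 77 than with compound 40, 1214 ± 96.9 against 1732 ± 183, a log2 difference of -0.51 or 1.42-fold (interval -0.75 to -0.27, limma Benjamini-Hochberg adjusted p = 0.0493). Between compounds 76 and 40 the difference was -0.48, with a limma Benjamini-Hochberg adjusted p of 0.125. Adjusted over all 6 pairs together, the p-values in limma were 0.0332 for 41 against 40, 0.0576 for 77 against 40 and 0.0869 for 76 against 40.

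Between compounds 41 and 40, 0.722% of all genes were called, and between 77 and 40, 0.576%. In the pairs 41 against 76, 41 against 77, 76 against 77 and 76 against 40, 0 proteasome genes were called in limma, where 0.146%, 0.643%, 0.662% and 0.152% of genes were, and 0%, 4.55%, 9.09% and 6.82% of the 44 had an unadjusted p below 0.05, against 6.32%, 9.74%, 8.39% and 9.91% of all genes. For 41 against 40 and 77 against 40 these shares were 4.55% and 13.6% of the 44, against 13% and 12.3% of all genes. The 95% interval lay within 2-fold for 93.2% to 100% of the 44 genes in a pair and within 1.5-fold for 75% to 86.4%. Over all genes these shares were 78.7% to 83.9% and 32.5% to 38.4%. Both PSMD1 calls were lost without compound 40 replicate 2, without its replicate 3, or without both, and the call for 41 against 40 also without any 1 array of compound 41, that for 77 against 40 without any 1 array of compound 77. Doses and times are not known, so whether the compounds were set at matched doses cannot be told.

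Between WT8 and PRC3, the ATPase gene PSMC1 was the 1 proteasome gene called, where 5.97% of all genes were. PSMC1 had 1188, 1283 and 1252 in WT8 cells against 1612, 1488 and 1770.2 in PRC3 cells. The groups did not overlap, and PSMC1 was 1.31-fold lower in WT8, a log2 change of -0.38 (95% interval -0.61 to -0.16, limma Benjamini-Hochberg adjusted p = 0.0392). The 44 genes had a median log2 difference of 0.15, against 0.0098 over all genes. Over the 38 subunits, activators and chaperones the median was 0.13. Of the 44 genes, 16, or 36.4%, had an unadjusted p below 0.05 in limma, against 18.6% of genes. Without WT8 replicate 3 it was 14, or 31.8%, against 17.2% of genes. The WT8 arrays lay above all PRC3 arrays for 9 genes and below them for 5, shares of 20.5% and 11.4% against 9.96% and 8.79% of all genes.

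The labels do not say that replicate numbers mark pairs. The arrays of WT8 and PRC3 were taken as paired because their deviations from the group means correlated (0.107 to 0.457). With the number as a block over all 24 arrays, limma called 5 proteasome genes in place of 1. That was 11.4%, where 8.7% of all genes were called with the block. PSMC1 and PSMA3 were lower in WT8, with limma Benjamini-Hochberg adjusted p-values of 0.00913 and 0.0167. PSMC2, an ATPase, PSMA5 and PSME4 were higher, with limma Benjamini-Hochberg adjusted p-values of 0.0127, 0.0295 and 0.0403. Without WT8 replicate 3, the array of lower RNA quality, the fit without the block called 4 genes, PSMA3, PSMB2, PSMB10 and PSME3IP1, and not PSMC1, a share of 9.09% where 5.41% of all genes were called. The median difference was then 0.16, and the call on PSMC1 was also lost without WT8 replicate 1 or 2 or PRC3 replicate 1 or 3.

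By role, the medians in WT8 against PRC3 were 0.23 in the alpha ring, 0.17 in the beta ring, -0.13 among the base ATPases, 0.040 among the other base subunits, 0.15 in the lid, 0.086 among the chaperones and 0.0075 among the activators. Without WT8 replicate 3 they were 0.16, 0.30, 0.19, 0.15, 0.11, 0.0032 and 0.062 in the same order, so that the sign turned among the base ATPases. PSMA3, of the alpha ring, had 1293, 1337 and 1634 in WT8 against 1755, 1927 and 1844 in PRC3, a log2 difference of -0.38 (limma Benjamini-Hochberg adjusted p = 0.0728). PSMB10 had 305, 345 and 183 in WT8 against 176, 179 and 180.0 in PRC3, a difference of 0.59 (limma Benjamini-Hochberg adjusted p = 0.0984). The groups did not overlap for either gene, and the lowest WT8 value of PSMB10 was that of replicate 3. PSMB7 differed by 0.37 and PSMB5 by -0.30, on arrays of 1079, 1151 and 1066 in WT8 against 1371, 1290.2 and 1408 in PRC3. PSMB6 differed by 0.11.

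PSMD14 had 2158, 2329.8 and 2326 in WT8 against 1853, 1921 and 1854 in PRC3, a difference of 0.28 that was not called. PSME4 had 284, 371 and 294 in WT8 against 170.4, 238 and 283 in PRC3, a difference of 0.48 (limma Benjamini-Hochberg adjusted p = 0.0750), and another of its probe sets differed by 0.88 and was called (limma Benjamini-Hochberg adjusted p = 0.00942). Among the genes that share only the prefix, PSMA3-AS1 had 55.1, 79.0 and 59.1 in WT8 against 88.0, 112 and 111 in PRC3, a difference of -0.70. PSMB8-AS1 and PSMD6-AS2 differed by 0.65 and 0.49 in the other direction, on arrays of 58.8, 61.1 and 44.7 in WT8 against 39.8, 37.1 and 28.4 in PRC3 and of 32.2, 69.9 and 64.7 in WT8 against 21.4, 49.9 and 49.4 in PRC3. The summed signal of the 5 fibroblast markers was 270.1 to 303 in WT8 and 190.0 to 222 in PRC3, with LUM called and 2 markers at the floor on all WT8 arrays, and its part in these differences was not tested.

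Of the 7 comparisons with a test other than the compound pairs, PRC3 against Blk had the median farthest from 0. The median log2 difference was -0.19, against -0.0024 over all genes, and 11 of the 44 genes, or 25%, were above 0, against 48.5% of genes. PSMA3 rose and PSMB2 and PSME3IP1 fell, 3 called genes, where 1.41% of all genes were called. An unadjusted p below 0.05 was reached by 18 genes, or 40.9%, against 12.8% of all genes. The PRC3 arrays lay below all Blk arrays for 14 genes, or 31.8%, against 8.88% of genes, and above them for 3, or 6.82%, against 7.51%. Over the alternatives tried, the median stayed between -0.26 and -0.11.

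PSMA3 had 1755, 1927 and 1844 in PRC3 against 1179.6, 1453 and 1333 in Blk, a rise of 1.4-fold or 0.48 on the log2 scale (limma Benjamini-Hochberg adjusted p = 0.0498). PSMB2, a structural beta subunit, had 2465, 2393 and 2306 in PRC3 against 3038, 3140.2 and 3498 in Blk, 1.35-fold lower, a log2 change of -0.43 (limma Benjamini-Hochberg adjusted p = 0.0295). PSME3IP1 had 318, 379.6 and 299.6 in PRC3 against 431, 581 and 548 in Blk, 1.56-fold lower, a log2 change of -0.64 (limma Benjamini-Hochberg adjusted p = 0.0477). The groups did not overlap for any of the 3 genes. Their other probe sets gave 0.22 for PSMA3, -0.12 and -0.55 for PSMB2, and -0.58, -0.16 and -0.91 for PSME3IP1, of which the -0.58 was called (limma Benjamini-Hochberg adjusted p = 0.0183). The PSMA3 call was lost without any 1 of the 6 arrays, the PSMB2 call without PRC3 replicate 2 or 3 or Blk replicate 2 or 3, and the PSME3IP1 call without any array but Blk replicate 1.

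The medians in PRC3 against Blk were below 0 in every role, at -0.090 in the alpha ring, -0.33 in the beta ring, -0.29 among the base ATPases, -0.25 among the other base subunits, -0.23 in the lid, -0.045 among the chaperones and -0.26 among the activators. In the beta ring, 2 of 8 genes were above 0, and the range was -0.60 to 0.31. PSMB5, the highest of them, had 1371, 1290.2 and 1408 in PRC3 against 947, 1225 and 1124 in Blk, and the groups did not overlap. PSMB6, PSMB7 and PSMB10 differed by -0.30, -0.35 and -0.57, and none was called. PSMG3 had 101, 115 and 135 in PRC3 against 249, 199 and 168 in Blk, the lowest difference of the 44 at -0.80 (limma Benjamini-Hochberg adjusted p = 0.114). PSMC6, an ATPase, had 430.3, 554 and 563 in PRC3 against 343, 449.8 and 380.5 in Blk, a difference of 0.40 with overlapping arrays. PSMA3-AS1 and PSMB8-AS1 differed by 0.72 and -0.62, and PSMD14 and PSME4 by -0.27 and -0.32.

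The single arrays pTR and pTV had no replicate check. Of the 44 genes, 8 were over 1.5-fold higher in pTR, where 18.4% of all genes were, and 1 was over 1.5-fold lower, where 12.6% were. None differed by over 2-fold, where 1071 of all 15095 genes were over 2-fold higher and 664 over 2-fold lower. Of the 44, 28 were higher in pTR by any amount, where 7644 of the 15095 genes were. The largest differences were those of PSMG3, at 232 in pTR and 125 in pTV (log2 0.90), and PSMG1, also a chaperone of core assembly, at 516 in pTR and 915 in pTV (log2 -0.83). PSMA3 was at 2095 in pTR and 1275 in pTV, and PSMB5 at 1504 in pTR and 958 in pTV. The median log2 difference was 0.19, against 0.0096 over all genes.

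Probe sets of one gene did not always run together. Of the 22 genes with several tested probe sets, all probe sets had the same sign in 11 with compound 41, 11 with 76, 13 with 40, 11 with 77, 15 in WT8 against PRC3 and 14 in PRC3 against Blk. The widest disagreement with a call was that of PSMC2. Its second probe set was called lower with compound 41 (log2 -0.85, limma Benjamini-Hochberg adjusted p = 0.0146) and with compound 76 (-0.76, limma Benjamini-Hochberg adjusted p = 0.0465). The probe set of highest signal gave 0.21 and 0.11 in the same comparisons. A gene's value therefore depends on which probe set stands for it.

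The immune subunits PSMB8 and PSMB9, which replace PSMB5 and PSMB6 in cells stimulated with interferon, were both called between WT8 and PRC3. PSMB9 had 615, 602 and 295 in WT8 against 157, 180.0 and 155 in PRC3. The groups did not overlap, with WT8 replicate 3 the lowest of its group, and PSMB9 was 2.92-fold higher in WT8 (log2 1.55, limma Benjamini-Hochberg adjusted p = 3.6e-05). PSMB8 was higher in WT8 by 0.72 on the log2 scale (limma Benjamini-Hochberg adjusted p = 0.0395), a call kept in 5 of 14 alternatives and lost without WT8 replicate 1 or 2 or PRC3 replicate 1 or 3. In PRC3 against Blk, PSMB9 fell by 0.93 (limma Benjamini-Hochberg adjusted p = 0.0284), a call kept in 5 of 14 alternatives and lost without any 1 PRC3 array or without Blk replicate 2 or 3, and PSMB8 differed by -0.36. With compounds 40, 41, 76 and 77 the PSMB9 differences from DMSO were -0.67, -0.67, -0.61 and -0.12, and those of PSMB8 were -0.73, -0.67, -0.60 and -0.50, none of them called. The arrays of compound 41 and DMSO were likewise taken as paired by replicate number, which the labels do not state. In the fit blocked by that number both PSMB9 and PSMB8 were called lower with compound 41 (limma Benjamini-Hochberg adjusted p = 0.0393 for PSMB9 and 0.0484 for PSMB8).

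Several other genes of the pathway were called with a compound. Of the 6 regulators of proteasome genes tested, 2 were called higher with compound 41 and the same number with compound 76. Of all genes, 3.34% and 1.78% were called in these comparisons. They were KEAP1, the adaptor that targets the transcription factor NFE2L2 for degradation, with log2 changes of 0.65 and 0.79, and MAFG, a DNA-binding partner of NFE2L1 and NFE2L2, with 1.05 and 1.11. The limma Benjamini-Hochberg adjusted p-values were 0.0170 and 0.00502 for KEAP1 and 0.0417 and 0.0440 for MAFG. The MAFG calls were each kept in 4 of 15 alternatives and lost without any 1 DMSO array or any 1 array of the compound, with a floor of 50, on signals as deposited and against Blk in place of DMSO (0.82 and 0.88). The KEAP1 call was kept in 9 of 15 alternatives with compound 41, lost among others without DMSO replicate 1 or compound 41 replicate 2 or 3, and in 14 of 15 with compound 76. With compounds 40 and 77, 0 of the 6 were called in limma and 2 and 0 had an unadjusted p below 0.05.

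Of the 12 genes of ubiquitin supply and shuttling tested, SQSTM1, which carries ubiquitinated cargo to autophagy, was higher with 3 of the compounds. SQSTM1 had 2225, 1779 and 1846 with compound 40, 2825, 2057 and 2286 with 41, 2621, 2167 and 2412 with 76 and 1068, 1280.3 and 1259 with 77, against 1273, 920.5 and 1135 in DMSO. All arrays of compounds 40, 41 and 76 lay above DMSO, and compound 77 overlapped with it. The log2 changes were 0.82 with compound 40, 1.11 with 41 and 1.12 with 76, with limma Benjamini-Hochberg adjusted p-values of 0.0397, 0.00135 and 0.00150, and the difference with compound 77 was 0.12. SQSTM1 was also higher with compound 41 than with 77 by 0.98 (limma Benjamini-Hochberg adjusted p = 0.0113) and with compound 76 than with 77 by 1.00 (limma Benjamini-Hochberg adjusted p = 0.00950). These calls were kept in 10 and 9 of 14 alternatives. Both were lost without compound 77 replicate 1, without the filter on dim probe sets and with the mean of all probe sets. With the mean of all its probe sets the SQSTM1 differences were 0.52 with compound 41 and 0.39 with compound 76, and neither was called. The call with compound 40 was lost without any 1 of the 6 arrays and in the fit with replicate 1 of that compound alone.

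UBB, a gene for polyubiquitin, was higher with compound 41 by 0.41 (limma Benjamini-Hochberg adjusted p = 0.0114), a call lost without DMSO replicate 2 or compound 41 replicate 2. Among the 11 proteasome-associated genes, AKIRIN2, which brings proteasomes into the nucleus, was higher with compound 76. It had 315, 347 and 331 with compound 76 against 165, 209 and 183 in DMSO, a log2 change of 0.84 (limma Benjamini-Hochberg adjusted p = 0.0264). The groups did not overlap, and the call was lost without any 1 compound 76 array, without DMSO replicate 1 or 3 and with only the groups compared. AKIRIN2 was also called higher with compound 76 than with 77, by 0.96, a call kept in 9 of 14 alternatives. In the fit blocked by replicate number, AKIRIN2 and, of the ubiquitin genes, FAF2, an adaptor that binds ubiquitin, were also called higher with compound 41, by 0.69 and 0.48 (limma Benjamini-Hochberg adjusted p = 0.0435 and 0.0438). POMP, the maturation factor of the core particle, differed from DMSO by -0.09 to 0.12 over the 4 compounds.

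In WT8 against PRC3, NFE2L1, the transcription factor that raises subunit genes when proteasome activity falls, had 444, 279.7 and 206 in WT8 against 707, 447 and 448 in PRC3. It was 1.77-fold lower in WT8, with no overlap (log2 -0.82, limma Benjamini-Hochberg adjusted p = 0.0216), a call that was lost without WT8 replicate 2 or 3 or PRC3 replicate 1. UBQLN1, a ubiquitin shuttle, was higher by 0.37 (limma Benjamini-Hochberg adjusted p = 0.0201). This call was kept in 6 of 14 alternatives and lost without WT8 replicate 2 or 3 or PRC3 replicate 1 or 2, among others, with a difference of 0.32 without WT8 replicate 3. In the blocked fit, SQSTM1 and NFE2L2 were also called higher in WT8, by 0.53 and 0.43 (limma Benjamini-Hochberg adjusted p = 0.0271 and 0.0185).

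NFE2L1 and NFE2L2 bind, with a small MAF protein, to antioxidant response elements, and the core of this element was searched in the promoters because NFE2L1 and MAFG were among the called genes, although several alternatives lost those calls. RefSeq promoters of GRCh38.p14, from 250 bases before to 50 after the start of a gene, were matched for 33 of the 39 subunit, activator and chaperone genes. The core TGACNNNGC, on either strand, was found in 12 of 33 genes, or 36.4%, against 16.1% of 27305 genes in the table. The CCAAT box was found in 48.5% against 39.7%, and the ETS-type motif CCGGAAG in 33.3% against 12.2%. A match is a description of these letters and says nothing of binding. Before the start, 10 genes held 11 matches, of which 4 were assembly chaperones, PSMD5, PSMD9, PSMG1 and PSMG2. Windows around the core are shown for the other 6, the subunits and activators, with the core in capitals and the sequence 5′ to 3′ on the strand of the gene.
PSMA4, chr15:78540650-78540678, plus strand: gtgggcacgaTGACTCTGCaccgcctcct
PSMB3, chr17:38752627-38752655, plus strand: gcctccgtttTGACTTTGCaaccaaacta
PSMD3, chr17:39980760-39980788, plus strand: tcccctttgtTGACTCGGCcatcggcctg
PSMD12, chr17:67366724-67366752, minus strand: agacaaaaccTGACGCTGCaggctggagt
PSME1, chr14:24136098-24136126, plus strand: atggcagggcTGACCCCGCctcctccatc
PSME4, chr2:53971009-53971037, minus strand: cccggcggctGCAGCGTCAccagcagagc
In PSME4 the core lies on the opposite strand. PSMD3 and PSMD12 are of the lid. None of the 10 genes was called against DMSO with any compound, and none in WT8 against PRC3, where NFE2L1 was called lower. With the replicate block, and by another of its probe sets, PSME4 was called higher in WT8. The log2 differences of the 10 genes ran from -0.32 to 0.15 with compound 41 and from -0.50 to 0.17 with compound 76, the compounds with which KEAP1 and MAFG were called. In PSMC4 and PSMD1 a match lies after the start.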

How the data were processed

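The authors deposited linear signal intensities, 1 per probe set and array, made with MAS5 per the submitters' processing notes, a method that summarises the probes of a set within an array. Version and scaling are not given in the sources. Per the labels, values were limited to between 20 and 16000 and probe sets of low variation were left out, but the deposited table holds lower values and all probe sets.

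The 62 control probe sets were removed, the 26 arrays were brought to 1 distribution by quantile normalization, values were bounded at 20 and 16000, and log2 was taken. A probe set stayed if 3 or more of the 24 replicated arrays reached the median of their array, which left 35013 of 54613. Names came from the platform annotation; of 41097 single-gene probe sets 41043 were found in the RefSeq table of GRCh38.p14, 1801 named several genes and 11777 were unnamed here. limma 3.58.1 in R 4.3.3 (lmFit, eBayes with a trend) fitted the 24 arrays of the 8 replicated groups together, with 16 residual degrees of freedom, and p-values were adjusted by Benjamini-Hochberg over the 35013. The scripts were tested on simulated data. pTR and pTV, 1 array each, had no test. The number of arrays limits the precision, and no 2 columns were identical.

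Genes with values per array were those called in any comparison, the 3 highest and 3 lowest of each comparison, PSMB5, PSMB6, PSMB7, PSMB10, PSMD14 and PSME4. The members, the lists and this rule were chosen with earlier results of these data known. Of the list genes, 29 of 35 in the associated, ubiquitin and regulator lists were tested. The deviations of arrays with the same replicate number correlated above 0.1 in all 3 pairs for 41 and 76 against DMSO, DMSO against Blk and WT8 against PRC3 (0.107 to 0.457), which were taken as paired, and not for 40 and 77 against DMSO or PRC3 against Blk.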

Additional observations from a re-analysis of the deposited data

Results flagged for a closer look

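PSMD1 stood out because its response differed between compounds in a test of the difference itself. It was lower with compound 41 than with compound 40 with a log2 difference of -0.56, and lower with compound 77 than with compound 40, with a log2 difference of -0.51. Both calls were lost without compound 40 replicate 2 or 3, whose columns had higher mean signals than the others. They were also lost without any single array of compound 41 or of compound 77, respectively. On compound 40 replicate 1, PSMD1 was at 1569, above every array of compounds 41, 76 and 77, at most 1331. Over the alternatives the log2 differences ran from -0.67 to -0.42 and from -0.63 to -0.37.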

How the results depend on the processing

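No direction of a called value reversed. Proteasome genes called were as follows under each alternative that moved a count by over 1.5 times. On signals as deposited there were 0 with compounds 76 and 40 and in WT8 against PRC3, 1 in PRC3 against Blk and 1 in the compound pairs. With median scaling there were 0 in each of these 5, and 19 of the 44 genes passed 1.5-fold in pTR against pTV. The share of all genes past 1.5-fold under that scaling was not computed. With quantile normalization 0 of the 44 passed 2-fold, where 1071 of all 15095 genes were over 2-fold higher and 664 lower. Without the filter on dim probe sets there were 0 with compounds 76 and 40, and 1 each in PRC3 against Blk and in the pairs. With a floor of 50 there were 0 with compound 40, 2 in WT8 against PRC3 and 1 in the pairs. With the mean of all probe sets there was 1 with compound 41, PSMD10, 4 in WT8 against PRC3, 1 in PRC3 against Blk and 0 in the pairs. Of all 15124 genes in that fit, 571 were called with compound 41, 1038 in WT8 against PRC3 and 246 in PRC3 against Blk. Fitting only the groups compared gave 0 with compounds 76 and 40, in WT8 against PRC3 and in PRC3 against Blk. Over all 35013 probe sets that fit called 126, 6, 19 and 0 in the same order. The fit of all 24 arrays called 474, 240, 1597 and 362. Blk in place of DMSO gave 2 with compound 40, PSMD1 and PSMB8-AS1, and leaving out compound 40 replicates 2 and 3 gave 0 with compound 40 and, an alternative chosen after seeing the data, 0 in the pairs. With the replicate block there were 5 in WT8 against PRC3 and 3 in the pairs. Where the numbers were not taken as pairing the arrays, it gave 2 with compound 40 and 6 in PRC3 against Blk. The block changed no other count of proteasome genes, and 22 of 24 arrays were closest to their own number. Over all 35013 probe sets, the block raised the calls from 1597 to 2313 in WT8 against PRC3. It raised them from 240 to 534 with compound 40 and from 362 to 697 in PRC3 against Blk. Blk in place of DMSO gave 341 with compound 40. Signals as deposited gave 409 with compound 76, 214 with compound 40, 1444 in WT8 against PRC3 and 271 in PRC3 against Blk. Median scaling gave 323, 100, 1185 and 186 in the same order. A floor of 50 gave 202 with compound 40 and 1509 in WT8 against PRC3. Without the filter, 395 of 54613 probe sets were called with compound 76, 149 with compound 40 and 289 in PRC3 against Blk. For the pairs such counts were not computed. Leaving out each array in turn gave 0 to 1 proteasome genes with compounds 40 and 76 and 0 with 41, 77 and in DMSO against Blk. It gave 0 to 4 in WT8 against PRC3, 0 to 2 in PRC3 against Blk and 0 to 3 in the pairs. Over all probe sets it called 50 to 622 with compound 40, 226 to 381 with 76, 419 to 685 with 41 and 15 to 125 with 77. There it called 0 to 2 in DMSO against Blk, 1006 to 1869 in WT8 against PRC3 and 151 to 311 in PRC3 against Blk. The median change moved by over 0.11, its SD between replicates, only with compound 40 (-0.040 to 0.24) and in WT8 against PRC3 (0.030 to 0.20). It turned below 0 within that SD with compound 41 (-0.030 to 0.11) and in DMSO against Blk (-0.0090 to 0.10). Over all probe sets, median scaling turned the calls in WT8 against PRC3 to 443 higher and 742 lower, from 822 and 775, and those with compound 41 to 302 and 210, from 411 and 478, and signals as deposited turned those with compound 40 to 154 and 60, from 119 and 121. The median signal of an array before normalization was 20.2 to 27.4, close to the floor, and low signals limit the dim genes PSMB8-AS1, PSMG3-AS1, PSMA3-AS1 and PSMD6-AS2. The values by role and by highest or lowest group without compound 40 replicates 2 and 3 or WT8 replicate 3 are alternatives chosen after seeing the data.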
